A study of Homo sapiens with 6 samples.

Results

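The transcript clusters of human chromosome 18 were described in the triple-negative breast cancer line MDA-MB-231, stably overexpressing the SUMO-binding mutant of DAXX (DSM OE) or wild-type DAXX (DAXX OE). A transcript cluster is the array's unit of a gene or a transcribed region, and its identifier carries the chromosome. All 1001 clusters assigned to chromosome 18 were taken, named or not, except 4 with gene symbols left out by the rule, which gave 997 members of 67528 clusters on the array. The chromosome was chosen from earlier results of the same DSM OE against DAXX OE contrast, so the differences between the groups are given below as a description and not as a test. Of the members, 330 carried 1 gene symbol, 10 carried several and 657 were unnamed. A current annotation placed 307 of the named clusters in order along the chromosome, 224 on the long arm (18q) and 83 on the short arm (18p).

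DAXX acts in the nucleus as a chaperone of histones and a regulator of transcription. SUMO, a small protein modifier, is bound through SUMO-interacting motifs. In DSM, both of these motifs of DAXX are disabled. Each cDNA was delivered by lentivirus behind a CMV promoter, with FLAG and MYC/His tags, and 1 stable population per construct was selected with puromycin at 2 µg/mL. Cells of both groups grew for 24 h in complete medium, and 200 ng of total RNA per sample was profiled on 1-colour HTA 2.0 arrays. Each group had 3 arrays, described as biological replicates of its population, and the labels disagree on the culture vessel. With 1 transduced population per construct, an effect of the mutant and a difference between the populations cannot be told apart, and no arrays of cells with a control vector were analysed here.

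A gain or loss of a chromosome arm changes the template for every gene it carries, and the transcripts of most expressed genes on that arm then tend to shift together by a similar ratio, while silent genes show little. Such changes of whole arms are common in cancer cell lines and can differ between populations derived from 1 line. The long arm of chromosome 18 carries several genes of the TGF-beta pathway, including SMAD2, a receptor-activated SMAD that receptors phosphorylate, SMAD4, the common partner that joins the activated SMADs in the nucleus, and SMAD7, an inhibitory SMAD that blocks the receptors. The arrays measured RNA and not DNA, so copy number itself was not measured.

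The promoter regions of these 3 genes are shown because these SMADs are the pathway genes of this arm named by the rule and SMAD complexes bind DNA at the short motif GTCT and its complement AGAC. Each line gives the 250 bases before the start of the gene on its own strand from RefSeq (GRCh38.p14), with every GTCT or AGAC in capitals.
SMAD2 (chr18:47930873-47931122, minus strand): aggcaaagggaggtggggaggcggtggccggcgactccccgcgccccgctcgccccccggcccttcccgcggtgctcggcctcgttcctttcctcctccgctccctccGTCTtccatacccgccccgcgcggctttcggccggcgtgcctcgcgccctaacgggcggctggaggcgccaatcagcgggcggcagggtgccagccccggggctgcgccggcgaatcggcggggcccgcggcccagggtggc
SMAD4 (chr18:51029963-51030212, plus strand): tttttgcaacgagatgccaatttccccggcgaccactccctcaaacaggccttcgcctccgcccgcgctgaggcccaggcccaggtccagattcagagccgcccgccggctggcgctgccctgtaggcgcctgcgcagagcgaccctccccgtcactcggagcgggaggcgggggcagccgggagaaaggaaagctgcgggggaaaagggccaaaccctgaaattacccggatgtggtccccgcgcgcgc
SMAD7 (chr18:48950966-48951215, minus strand): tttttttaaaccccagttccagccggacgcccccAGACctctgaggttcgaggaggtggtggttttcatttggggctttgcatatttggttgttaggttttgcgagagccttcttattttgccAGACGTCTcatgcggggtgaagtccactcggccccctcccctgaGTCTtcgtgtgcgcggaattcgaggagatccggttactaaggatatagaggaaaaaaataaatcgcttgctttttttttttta

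The SMAD2 window held 1 such motif, the SMAD4 window held 0 and the SMAD7 window held 4, of which one AGAC is followed directly by a GTCT. The joined stretch AGACGTCT reads the same on both strands. None of the 3 windows held the palindrome GTCTAGAC, which also reads the same on both strands and was present in 0.182% of 35116 RefSeq windows of this length. A single GTCT or AGAC was present in 77.5% of them. Each window ends at 1 annotated gene start, and sequence outside it was not searched. Windows were found for 113 of the 139 expressed 18q genes defined below and 49 of the 58 expressed 18p genes, and 73.5% of the 18q windows and 77.6% of the 18p windows held the short motif. The median GC content was 66.4% for the 18q windows and 70.4% for the 18p windows. A match of letters is a description of the window and says nothing of whether a SMAD binds there.

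The values are log2 signals, so a difference of 1 is a doubling. DAXX itself, overexpressed in both groups, had a signal of 9.34 ± 0.03 in DSM OE and 8.86 ± 0.16 in DAXX OE (SD, n = 3 each), from a cluster that does not separate the introduced cDNA from the cell's own gene. The 7 mesenchymal markers averaged between 6.61 (SPARC) and 11.87 (VIM) over the 6 arrays, with a median difference of -0.01, and 0 lay apart without overlap. The 6 luminal or epithelial markers averaged between 3.65 (PGR) and 10.30 (KRT18), with CDH1 at 5.56 and ESR1 at 5.71, and had a median difference of -0.04. EPCAM alone of these lay higher in DSM OE with no overlap (7.84 ± 0.05 in DSM OE and 7.50 ± 0.26 in DAXX OE). Over 5 markers of other cell types the median was -0.13, with PTPRC (mean 4.5) lower and COL1A1 (mean 7.29) higher without overlap. Over all clusters, 9.1% lay higher and 6.92% lower in DSM OE without overlap. Among named clusters above the median level these shares were 18.6% and 3.78%. The part of these markers in the results was not tested. One array stood apart. DAXX OE replicate 1 correlated with the other arrays at 0.966 to 0.974 over all clusters, against up to 0.996 among the others, and its signals spread less (SD 1.72, against 1.85 to 1.88). No batch or scan date is given in the labels, and the main results are therefore also given without this array.

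Expressed genes of the long arm lay higher in DSM OE than in DAXX OE as a group, and those of the short arm lay close to the rest of the genome. A cluster was taken as expressed when its mean over the 6 arrays was above the median of all clusters (5.63), which 423 of the 997 members passed, among them 139 placed 18q genes and 58 placed 18p genes. The median difference, DSM OE minus DAXX OE, was 0.31 over the expressed 18q genes (interquartile range 0.16 to 0.42), 0.10 over the expressed 18p genes (0.01 to 0.17) and 0.06 over 15916 expressed named clusters of other chromosomes (-0.06 to 0.16). As a ratio, the 18q median was 1.24-fold. The difference was positive for 121 of the 139 18q genes (87.1%), for 45 of the 58 18p genes (77.6%) and for 62.4% of the genes of other chromosomes.

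The lowest DSM OE array exceeded the highest DAXX OE array for 91 of the 139 expressed 18q genes (65.5%) and for 9 of the 58 expressed 18p genes (15.5%), against 18.6% of all expressed named clusters. The highest DSM OE array lay below the lowest DAXX OE array for 4 of the 18q genes (2.88%) and 2 of the 18p genes (3.45%), against 3.78%. Over all 997 members, 156 did not overlap with DSM OE higher, against 9.1% of all clusters, and 71 did not overlap with DSM OE lower, against 6.92%. Over all members, unnamed clusters and genes with little signal included, the median was -0.03, close to the -0.04 of all clusters. Of the 139 expressed 18q genes, 3 (KIAA1328, CHST9 and PSTPIP2) passed the level filter only through DSM OE, and 2 of these are among the 91. Of the 58 expressed 18p genes, 3 (CYP4F35P, CBX3P2 and CHORDC1P4) also passed only through DSM OE, and 1 of these is among the 9. With both group means above 5.63, the medians were 0.31 for 18q and 0.09 for 18p. Because this contrast was used in choosing the chromosome, nothing is read from these shares beyond the description.

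**Figure D1:**
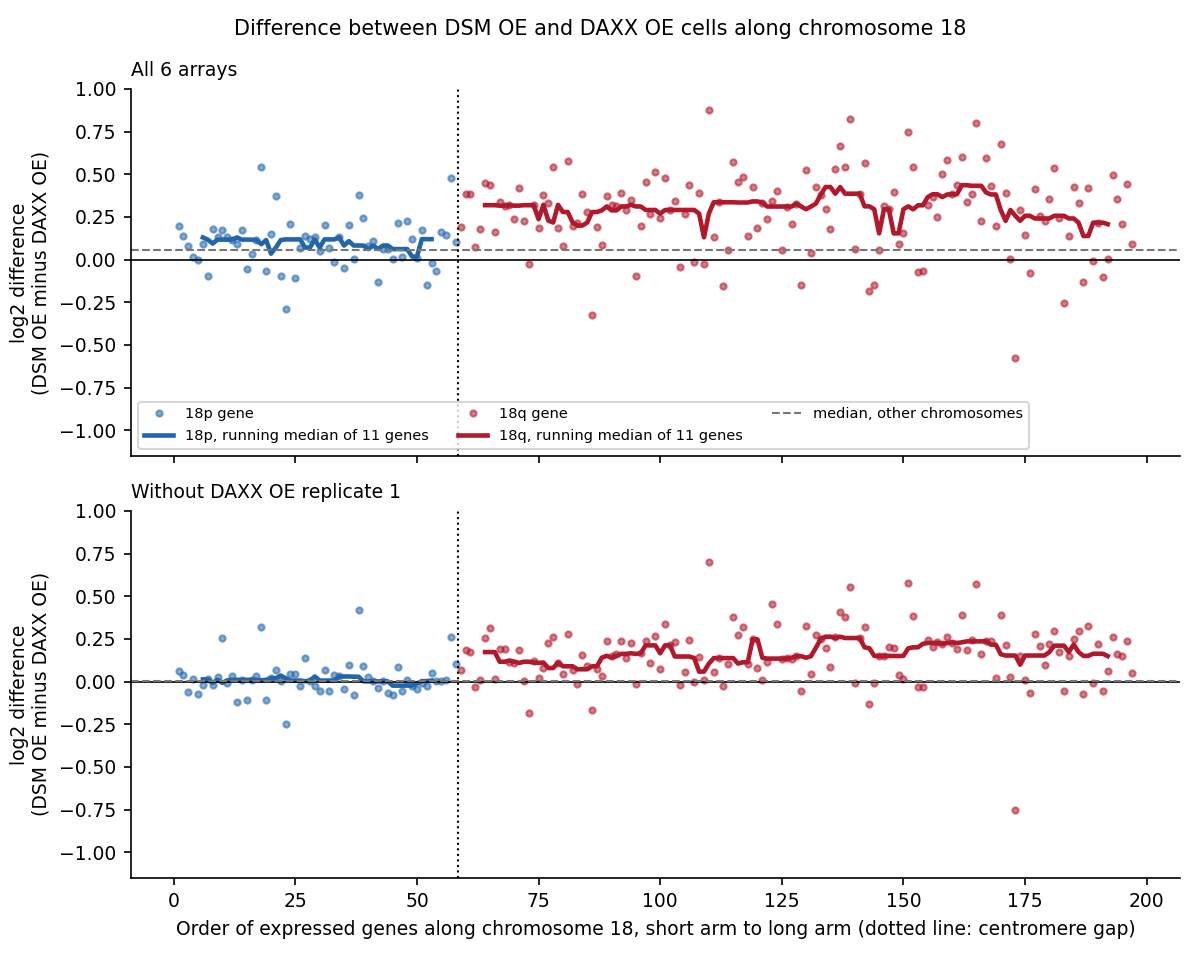
Differences in log2 signal (DSM OE minus DAXX OE) of 197 expressed named clusters in their order along chromosome 18, over all 6 arrays (upper) and without DAXX OE replicate 1 (lower). Points are genes, lines are running medians over 11 neighbouring genes within an arm, and the dashed line is the median of expressed genes of other chromosomes. The 18q line stays above the dashed line along the whole arm in both panels.

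The arms differed array by array, and DAXX OE replicate 1 carried much of the size. The median deviation of the expressed 18q genes from their 6-array means was 0.15, 0.13 and 0.17 in DSM OE replicates 1, 2 and 3, against -0.45, -0.02 and -0.01 in DAXX OE replicates 1, 2 and 3. For the expressed 18p genes it was 0.05, 0.03 and 0.07 in DSM OE and -0.25, 0.03 and 0.04 in DAXX OE, and for genes of other chromosomes it was 0.03 in each DSM OE array and -0.17, 0.00 and 0.03 in the DAXX OE arrays. The DSM OE arrays thus lay above every DAXX OE array on 18q, and within or just above the range of DAXX OE replicates 2 and 3 on 18p. DAXX OE replicate 1 was the lowest of its group for 114 of the 139 18q genes and for 42 of the 58 18p genes. It was also lower on 18q than on 18p by 0.19, a larger gap than the 0.049 of DAXX OE replicate 2 and the 0.045 of replicate 3 in the same direction, whereas each DSM OE array was higher on 18q than on 18p, by 0.09 to 0.10.

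**Figure D2:**
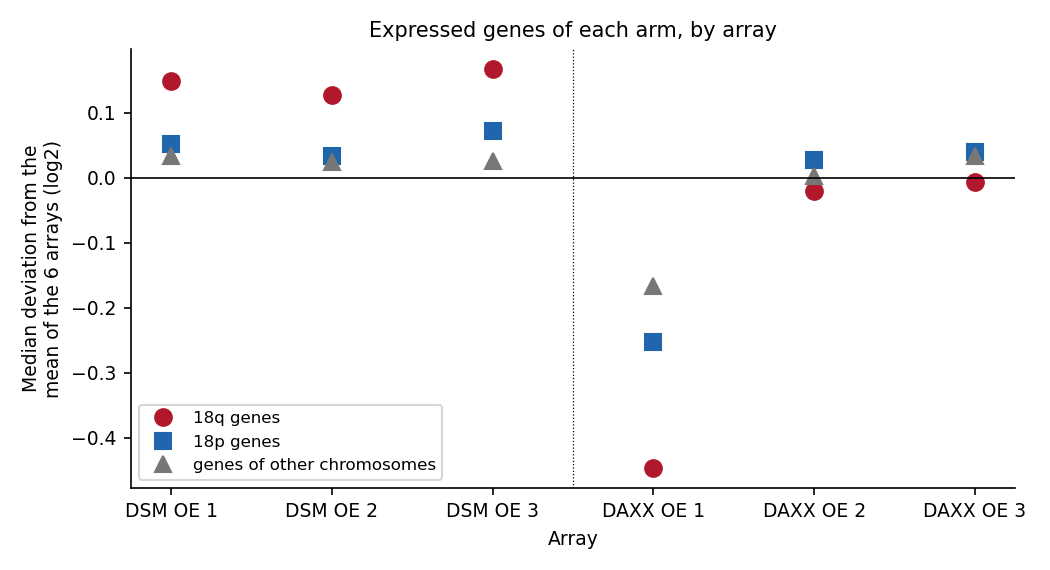
Median deviation (log2) of expressed 18q genes, 18p genes and genes of other chromosomes from their means over the 6 arrays, by array. The 18q medians are 0.13 to 0.17 in the DSM OE arrays and -0.45, -0.02 and -0.01 in the DAXX OE arrays.

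Without DAXX OE replicate 1 the 18q median was 0.16, or 1.12-fold (interquartile range 0.05 to 0.25), with a positive difference for 119 of 139 genes, while the 18p median was 0.01 with 35 of 58 positive and the median of other chromosomes was 0.00 with 53.1% positive. Taken pair by pair, the median over the 18q genes lay between 0.15 and 0.20 for the 6 pairs of a DSM OE array with DAXX OE replicate 2 or 3, and between 0.57 and 0.61 for the 3 pairs with DAXX OE replicate 1. The same pairs gave 18p medians of -0.01 to 0.03 and 0.27 to 0.32. Pairs within a group gave 18q medians of -0.02 to 0.02 in DSM OE and 0.04 between DAXX OE replicates 3 and 2. DAXX OE replicate 2 minus replicate 1 gave 0.41 and replicate 3 minus replicate 1 gave 0.45. Among the 91 18q genes with no overlap, the highest DAXX OE array was replicate 2 or 3 for 90, with a median gap of 0.15 to the lowest DSM OE array. In fold classes, 57.6% of the 18q genes differed by at least 1.2-fold upward over all arrays and 18.7% without DAXX OE replicate 1. For genes of other chromosomes those shares were 9.34% and 1.65%.

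Along the arm the running difference stayed positive. The running median over 11 neighbouring expressed genes was positive in all 129 windows of 18q, from 0.13 around SIGLEC15 to 0.44 around PHLPP1, and in all 48 windows of 18p, from 0.02 to 0.13. Without DAXX OE replicate 1 it was positive in 129 of 129 windows of 18q, from 0.06 around EPG5 to 0.26 around MBD2, and each lay above the median of other chromosomes. On 18p it then ran from -0.02 to 0.04 and was positive in 40 of 48 windows.

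The expressed 18q genes were divided into 5 stretches of similar gene number from the centromere outward. The median was 0.30 from ROCK1 to WBP11P1, 0.29 from DTNA to ST8SIA5, 0.36 from HDHD2 to WDR7, 0.35 from LINC-ROR to RTTN and 0.23 from SOCS6 to PARD6G. Without DAXX OE replicate 1 the same stretches gave 0.11, 0.14, 0.25, 0.20 and 0.15. The 2 stretches of 18p gave 0.12 and 0.08, and 0.01 and 0.00 without that array. A gene-free stretch separates the arms. The last 4 expressed genes on its 18p side, FAM210A, ZNF519, ANKRD20A5P and CYP4F35P, differed by 0.16, 0.15, 0.48 and 0.10 over all arrays and by 0.00, 0.01, 0.26 and 0.10 without DAXX OE replicate 1. The first 5 on its 18q side, ROCK1, a kinase of the actin cytoskeleton, GREB1L, ESCO1, an acetyltransferase of cohesin, SNRPD1, a spliceosome protein, and ABHD3, gave 0.19, 0.38, 0.39, 0.07 and 0.18 over all arrays and 0.07, 0.18, 0.17, -0.03 and 0.01 without that array. The values of the 2 sides overlap. ANKRD20A5P and CYP4F35P are pseudogenes of gene families, and their signals may include related sequences. CYP4F35P passed the level filter only through DSM OE.

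The SMAD genes lay higher in DSM OE, as most expressed genes of the arm did, to unequal extents. SMAD2 had signals of 9.69, 9.66 and 9.65 in DSM OE replicates 1, 2 and 3, against 8.86, 9.35 and 9.35 in DAXX OE. SMAD4 had signals of 9.21, 9.18 and 9.17 in DSM OE, against 8.46, 8.90 and 8.93 in DAXX OE. SMAD7 had signals of 6.89, 6.93 and 6.94 in DSM OE, against 6.71, 6.79 and 6.84 in DAXX OE. For each of the 3 genes the groups did not overlap, DAXX OE replicate 1 was the lowest array, and the DSM OE arrays lay close together.

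SMAD2 averaged 9.67 ± 0.02 in DSM OE and 9.18 ± 0.28 in DAXX OE (SD, n = 3 each), a difference of 0.48 (SE 0.15) or 1.4-fold, and 1.25-fold without DAXX OE replicate 1. SMAD4 averaged 9.19 ± 0.02 in DSM OE and 8.76 ± 0.26 in DAXX OE, a difference of 0.43 (SE 0.14) or 1.34-fold, and 1.21-fold without that array. Both differences were above the 18q median. SMAD7 averaged 6.92 ± 0.02 in DSM OE and 6.78 ± 0.06 in DAXX OE, a difference of 0.14 (SE 0.09) or 1.1-fold, and 1.07-fold without DAXX OE replicate 1. The difference over all arrays lay below the lower quartile of the 18q genes. SMAD7 also had a lower signal than SMAD2 and SMAD4, and the part of level in this was not tested.

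The other genes of the pathway on this chromosome differed by less than SMAD2 and SMAD4. TGIF1, a repressor that binds activated SMADs, lies on 18p and had signals of 7.39, 7.36 and 7.32 in DSM OE, against 7.08, 7.32 and 7.32 in DAXX OE, a difference of 0.11 that came to 0.04 without DAXX OE replicate 1. TWSG1, a secreted modulator of BMP ligands on 18p, gave 0.05 and -0.06, and LDLRAD4, an inhibitor of SMAD phosphorylation on 18p, gave -0.15 and -0.02. Over the 7 pathway genes of the chromosome, the median was 0.14, and 0.10 without DAXX OE replicate 1. Of the 7, 4 lay higher in DSM OE with no overlap, against 9.1% of all clusters. Of the 6 that were expressed, 3 did, against 18.6% of all expressed named clusters. The fourth gene with no overlap, SKOR2, a transcriptional co-repressor on 18q, was below the median level and gave 0.14 over all arrays and 0.15 without DAXX OE replicate 1. Of 19 measured pathway genes on other chromosomes (ligands, receptors, other SMADs and target genes), 9 lay higher in DSM OE with no overlap (47.4%, against 18.6% of all expressed named clusters) and 0 lay lower (against 3.78%), with a median of 0.14 over all arrays and 0.07 without DAXX OE replicate 1. All 9 were among the 18 expressed genes of this list. At the SMAD genes themselves, a shift of the arm and a shift of the pathway cannot be told apart.

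**Figure D3:**
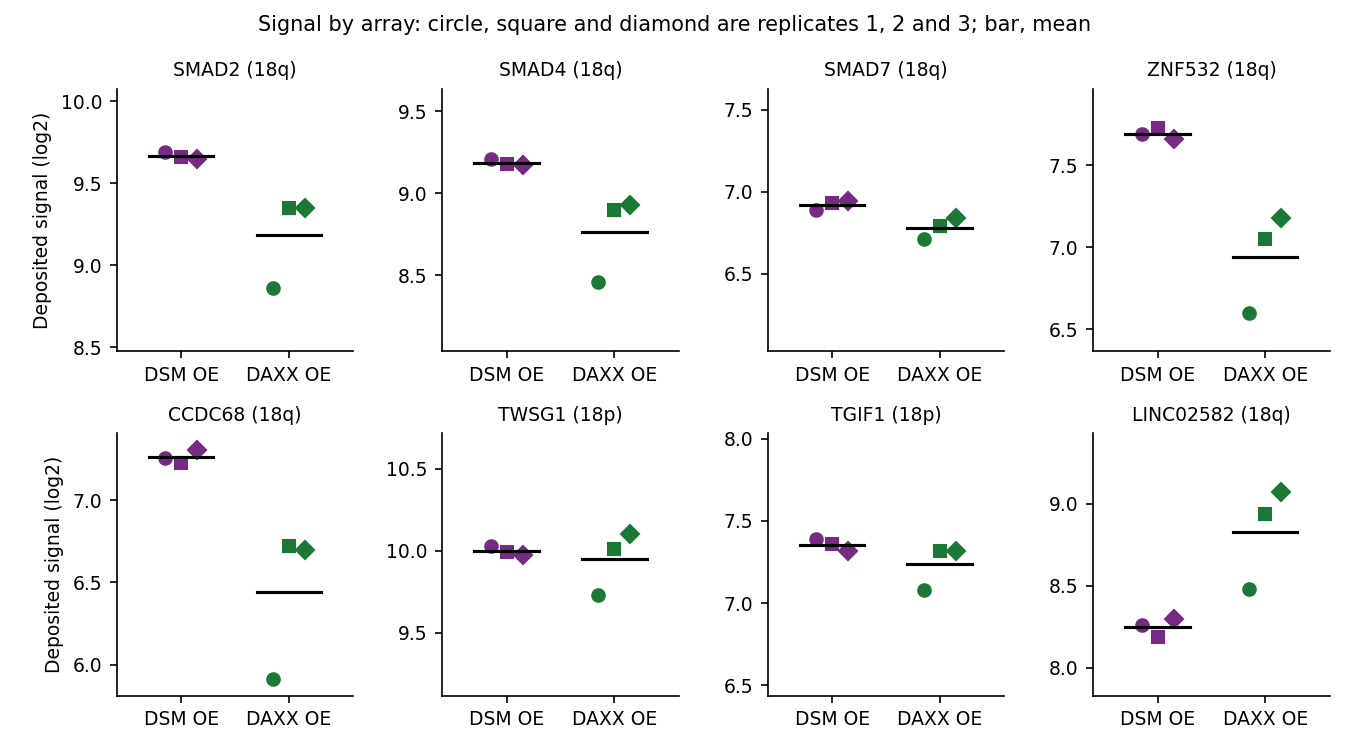
Deposited log2 signal of 8 chromosome 18 genes in the 3 DSM OE and 3 DAXX OE arrays, each panel spanning the same range. DSM OE lies above DAXX OE without overlap for SMAD2, SMAD4, SMAD7, ZNF532 and CCDC68, the groups overlap for TWSG1 and TGIF1 on 18p, and LINC02582 lies lower in DSM OE (8.26, 8.19 and 8.30, against 8.48, 8.94 and 9.07).

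The 10 expressed genes with the most positive differences and no overlap were all on 18q. PSTPIP2, an F-BAR protein that binds actin, had signals of 6.33, 6.24 and 6.43 in DSM OE, against 5.11, 5.55 and 5.71 in DAXX OE, a difference of 0.88, and 0.70 without DAXX OE replicate 1. Its DAXX OE mean lay below the level filter, so it counted as expressed only through DSM OE. CCDC68, a coiled-coil protein of the centriole, had signals of 7.26, 7.23 and 7.31 in DSM OE, against 5.91, 6.72 and 6.70 in DAXX OE, a difference of 0.82 and 0.56 without that array. ZNF532, a zinc finger protein, had 7.69, 7.73 and 7.66 in DSM OE, against 6.60, 7.05 and 7.18 in DAXX OE, a difference of 0.75 and 0.58. In each of these genes DAXX OE replicates 2 and 3 also lay well below every DSM OE array.

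The others of these 10 included HMSD, a minor histocompatibility gene of the serpin cluster (0.80, above ZNF532, and 0.57 without DAXX OE replicate 1), and RTTN, a centriole protein (0.68 and 0.39). C18orf54 (0.66 and 0.41), the AKT phosphatase PHLPP1 (0.60 and 0.39), the dermatan sulfate epimerase-like gene DSEL (0.60 and 0.24), RELCH, which takes part in cholesterol transport between organelles (0.58 and 0.26), and the desmosomal cadherin DSC2 (0.58 and 0.28) followed. For DSEL, RELCH and DSC2 the value without DAXX OE replicate 1 was less than that of the SMAD2 gene, which ranked behind them over all arrays.

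Some genes of the chromosome differed with no part of DAXX OE replicate 1. CTDP1, a phosphatase of RNA polymerase II near the end of 18q, averaged 8.25 ± 0.01 in DSM OE and 8.04 ± 0.04 in DAXX OE, a difference of 0.22 with that array and without it. GNAL, a G protein alpha subunit on 18p, had 6.65, 6.60 and 6.54 in DSM OE, against 6.30, 6.14 and 6.22 in DAXX OE (0.38, and 0.42 without the array). LIPG, an endothelial lipase on 18q, had 6.19, 6.30 and 6.13 in DSM OE, against 6.09, 5.72 and 5.79 in DAXX OE (0.34 and 0.45). In GNAL and LIPG, DAXX OE replicate 1 was the highest of its group and not the lowest.

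Of the 209 expressed members with 1 symbol, 7 lay lower in DSM OE with no overlap (3.35%, against 3.78% of all expressed named clusters). LINC02582, a long non-coding RNA on 18q, stood furthest from its arm, with 8.26, 8.19 and 8.30 in DSM OE, against 8.48, 8.94 and 9.07 in DAXX OE (-0.58, and -0.75 without DAXX OE replicate 1). The pseudogenes AKR1B1P6 (-0.40, and -0.28 without that array) and WBP11P1 (-0.32 and -0.17), LRRC30 (-0.29 and -0.25) and CIDEA, a lipid droplet protein (-0.13 and -0.04), both on 18p, DIPK1C (-0.08 and -0.07) and GRP, the gastrin-releasing peptide gene (-0.08 and -0.03), made up the rest. Below the median level, LINC02864 on 18q had signals of 5.08, 5.14 and 5.21 in DSM OE, against 5.81, 6.02 and 6.22 in DAXX OE. DAXX OE replicate 1 was the nearest to DSM OE in LINC02582 and LINC02864.

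The genes were also grouped by function, and each list's counts stand beside 18.6% of all expressed named clusters higher and 3.78% lower with no overlap. Of the arms themselves, 65.5% of the expressed 18q genes and 15.5% of the expressed 18p genes lay higher with no overlap. A list share near that of its arm is therefore not read as a trait of the function. Some list genes were below the median level and lie outside the sets behind these shares. Of 17 measured genes of chromosome segregation and chromatin, 11 lay higher in DSM OE with no overlap (64.7%) and 0 lower, with a median of 0.29, and 0.14 without DAXX OE replicate 1. They included ESCO1, the kinetochore gene SKA1 (0.33, and 0.15 without that array), the augmin subunit HAUS1 (0.34 and 0.14), the DNA polymerase POLI (0.53 and 0.26), the methyl-CpG binding genes MBD1 (0.31 and 0.14) and MBD2 (0.30 and 0.20) and the chromatin remodelling subunit SS18 (0.33 and 0.22), all on 18q. The 18p members NDC80, a kinetochore gene, SMCHD1, a chromatin protein of the inactive X, and TYMS, thymidylate synthase, gave 0.13, 0.13 and 0.00 with overlapping groups, and 0.03, -0.01 and -0.07 without DAXX OE replicate 1.

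Of 15 genes of membrane traffic and lipid handling, 10 lay higher with no overlap (66.7%) and 0 lower, with a median of 0.32, and 0.13 without DAXX OE replicate 1. RAB27B, a GTPase of secretory vesicles, averaged 9.46 ± 0.06 in DSM OE and 8.91 ± 0.30 in DAXX OE (0.54, and 0.38 without that array). LMAN1, a cargo receptor of the early secretory pathway, averaged 11.11 ± 0.02 in DSM OE and 10.79 ± 0.13 in DAXX OE (0.32 and 0.24), and PIK3C3, the lipid kinase of autophagy, 8.89 ± 0.01 in DSM OE and 8.45 ± 0.33 in DAXX OE (0.44 and 0.25). NPC1, the lysosomal cholesterol transporter on 18q, averaged 9.72 ± 0.01 in DSM OE and 9.49 ± 0.22 in DAXX OE (0.24 and 0.11). On 18p, the GTPases RAB12 and RAB31 both gave 0.07 with overlapping groups, and -0.02 and -0.05 without DAXX OE replicate 1, while CHMP1B, an ESCRT-III subunit, lay higher in DSM OE with no overlap (0.25, and 0.09 without that array).

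Of 11 measured candidate tumour suppressors of 18q, 6 lay higher with no overlap (54.5%: SMAD2, SMAD4, MBD1, MBD2, PHLPP1 and ATP8B1) and 0 lower, with a median of 0.30, and 0.14 without DAXX OE replicate 1. All 6 were among the 9 expressed genes of this list. DCC, the netrin receptor for which the region is often named, was below the median level (4.59 ± 0.04 in DSM OE and 4.73 ± 0.21 in DAXX OE). The serpins and cadherins of 18q were mostly below the median level. One of 8 measured clade B serpins and 2 of 11 desmosomal and classical cadherins passed the level filter, and these were the ones with no overlap: SERPINB8 (0.23, and 0.16 without DAXX OE replicate 1), DSC2 and DSG2 (0.20 and 0.07). The medians of the whole lists were -0.06 for the serpins and -0.02 for the cadherins, and 0.07 and 0.06 without that array. The other serpins gave values from -0.20 to 0.13 over all arrays. Of 21 signalling genes, with a median of 0.09 that was near 0 without DAXX OE replicate 1, 6 lay higher with no overlap (28.6%) and 0 lower, among them GATA6, a transcription factor of endoderm (8.69 ± 0.06 in DSM OE and 8.25 ± 0.22 in DAXX OE, a difference of 0.44, and 0.31 without that array), MIB1, a ubiquitin ligase of Notch ligands (9.29 ± 0.06 in DSM OE and 8.84 ± 0.34 in DAXX OE, 0.45 and 0.26), and TNFRSF11A, the receptor RANK (0.38 and 0.23). The mitochondrial and metabolic list had 4 of 12 higher with no overlap (33.3%) and 0 lower, with a median of 0.14, and 0.02 without DAXX OE replicate 1. Among its 11 expressed genes, 3 lay higher. Of the 4, FECH, ferrochelatase (0.31, and 0.15 without that array), NARS1, an asparaginyl-tRNA synthetase (0.29 and 0.20), and SLC14A1, a urea transporter below the median level (0.37 and 0.48), are on 18q, while PPP4R1, a phosphatase subunit (0.20 and 0.07), is on 18p.

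The difference on 18q depended on signal level. The expressed genes of other chromosomes were cut into 4 equal level classes, and the 18q genes of these classes had medians of 0.04, 0.24, 0.35 and 0.34 in order of level (21, 33, 36 and 49 genes), against -0.08, 0.01, 0.12 and 0.10 for other chromosomes. Without DAXX OE replicate 1 the 18q medians were 0.00, 0.15, 0.19 and 0.20, against 0.00, 0.01, 0.01 and 0.00 for other chromosomes. The share of 18q genes higher with no overlap was 23.8% in the lowest class and 81.6% in the highest, against 7.89% and 21.4% for other chromosomes. Among the 85 placed 18q genes below the median level the median was -0.10, and 0.02 without DAXX OE replicate 1. The narrower spread of signals in DAXX OE replicate 1 moves with these level classes, also on other chromosomes, and its part in the values over all arrays was not tested.

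**Figure D4:**
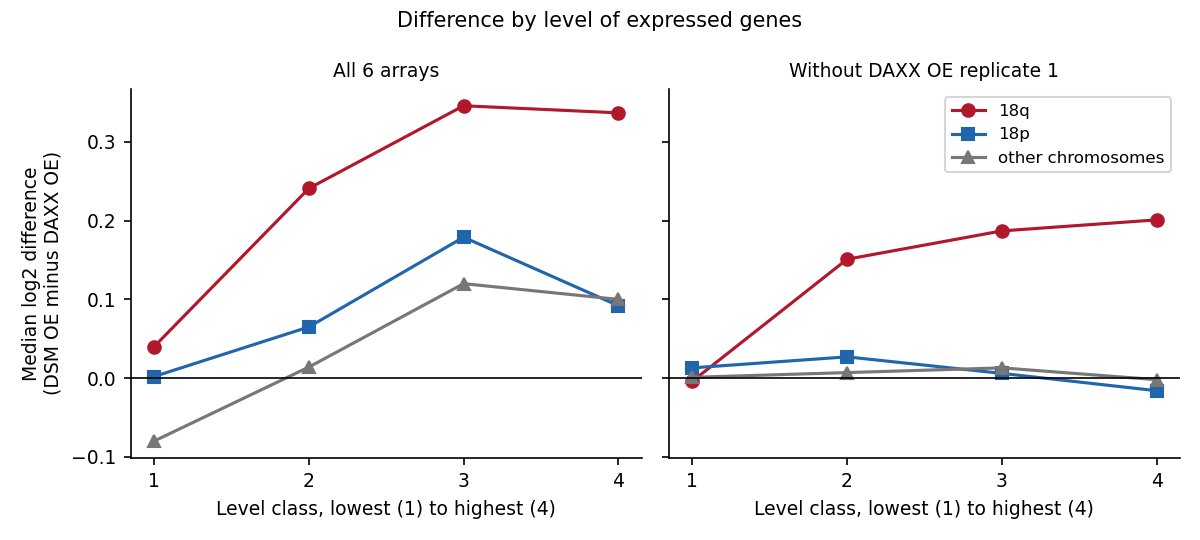
Median log2 difference (DSM OE minus DAXX OE) of expressed 18q genes, 18p genes and genes of other chromosomes in 4 classes of mean level, over all arrays (left) and without DAXX OE replicate 1 (right). The 18q medians run from 0.04 to 0.35 on the left and from 0.00 to 0.20 on the right, and the other curves stay near 0 on the right.

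By gene type, the 125 expressed protein-coding 18q genes had a median of 0.32, and 0.17 without DAXX OE replicate 1. Without overlap, 88 lay higher (70.4%, against 18.6% of all expressed named clusters) and 2 lower (1.6%, against 3.78%). The 6 expressed long non-coding RNAs of 18q had a median of -0.02, and 0.00 without that array. Their median level was 6.34, against 7.88 for the protein-coding genes, and the part of level in this contrast was not tested. The 37 expressed unnamed clusters that lie between 18q genes in the array's numbering had a median of -0.02, and 0.01 without DAXX OE replicate 1. The sources used here do not say what these clusters detect. A further 51 expressed unnamed clusters between 18p genes had a median of -0.23, and -0.04 without that array. Expressed unnamed clusters of other chromosomes had medians of -0.03 over all arrays and 0.00 without DAXX OE replicate 1. Of the unnamed clusters, 408 could not be placed on an arm.

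Among the 22 autosomes and X, chromosome 18 had the highest median of expressed named clusters, 0.20 over all arrays and 0.09 without DAXX OE replicate 1, over 209 clusters of both arms. Chromosome 6 followed with 0.14 and 0.06, and chromosome 9 was the third without that array, with 0.10 and 0.05. The share of clusters higher in DSM OE with no overlap was 48.3% on chromosome 18, 38.6% on chromosome 6 and 37.6% on chromosome 9. The remaining chromosomes had medians without DAXX OE replicate 1 between -0.06 on chromosome 13 and 0.03 on chromosome 20. The 18q genes alone had 0.16, but no other chromosome was divided into arms, so that value has no like value beside it.

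**Figure D5:**
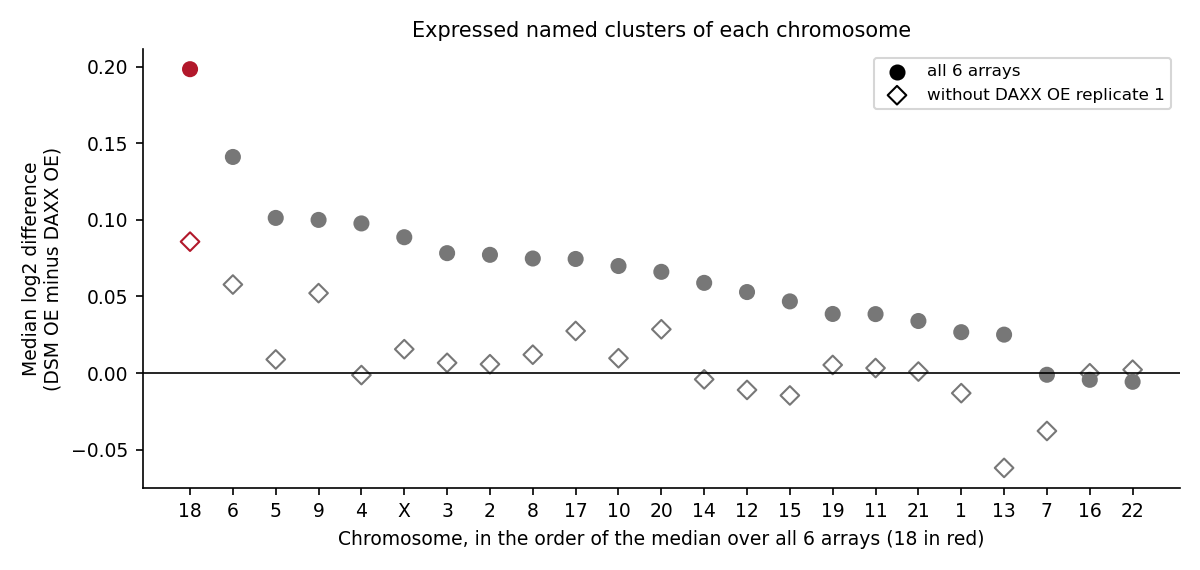
Median log2 difference (DSM OE minus DAXX OE) of expressed named clusters on each autosome and X, over all 6 arrays (filled circles) and without DAXX OE replicate 1 (open diamonds), with chromosome 18 in red. Chromosome 18 has the highest median in both (0.20 and 0.09), followed by chromosome 6 (0.14 and 0.06).

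No single member passed the threshold in the fit across all clusters. With limma and Benjamini-Hochberg adjustment over 67528 clusters, 0 of the 997 members had an adjusted p under 0.05, against 0.0341% of all clusters, while 114 members (11.4%) had an unadjusted p under 0.05, against 4.72% of all clusters. The methods' t-test on the same values also gave 0 members after adjustment. Without DAXX OE replicate 1, limma called 2 members, against 0.0829% of all clusters. They were LINC02864, lower in DSM OE by 0.97 on the log2 scale (adjusted p = 0.0447), and the unnamed cluster TC18000761, named here after its values were seen, which had signals of 7.89, 7.90 and 7.90 in DSM OE, against 6.32, 7.24 and 7.25 in DAXX OE (difference 0.65 without replicate 1, adjusted p = 0.0291).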

How the data were processed

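Total RNA of 3 DSM OE and 3 DAXX OE cultures was profiled on HTA 2.0 arrays. The authors deposited log2 signals from RMA, which corrects background, normalizes probes between arrays by quantiles and summarises them per cluster. The tool named in the submitters' processing notes is Affymetrix Expression Console 1.3. A ComBat correction of arrays from different collection times is part of the methods, and the sources used here do not say if these arrays received it. The table held 70523 rows, of which 67528 transcript clusters were used and control probe sets were left out. Array signals have no counting depth, so the number of arrays limits the precision.

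Chromosome was read from the cluster identifier. Gene symbols came from the platform annotation and were matched by Entrez identifier to RefSeq (GRCh38.p14), whose build may differ from the array's. Only the order of genes was therefore used, and the arms were separated at the longest stretch of the chromosome without a gene start. Cluster numbers followed the order of gene starts in 301 of 306 neighbouring steps, and unnamed clusters were placed on an arm only between named neighbours of 1 arm (131 on 18q and 118 on 18p). Another 23 clusters with 1 symbol were not placed. In the lists, a gene with several clusters took the one of highest mean.

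DSM OE was compared with DAXX OE over all clusters by linear models in limma 3.58.1 (R 4.3.3), with moderated variances (2-sided, 4 residual degrees of freedom, Benjamini-Hochberg, threshold 0.05), and the script was tested on simulated data. Adjusted p-values come from limma. The smallest p of an exact permutation test of 3 against 3 arrays is 0.10, so none was run. Named genes were SMAD2, SMAD4 and SMAD7, called members, the 10 largest differences in each direction among expressed members with 1 symbol and no overlap, and members of 8 lists of chromosome 18 genes by role. One further list of the TGF-beta pathway off the chromosome, and 3 marker lists, gave counts or checks. Genes on either side of the centromere, LIPG's and GNAL's comparison with DAXX OE replicate 1, the 18p list members with overlapping groups and TC18000761 were named after their values were seen. The members, lists and rules were chosen with earlier results of these data known. The alternatives were each array left out, quantile normalization, median centring, cyclic loess, 1 cluster per gene, other level filters, of which one in both groups was added after seeing the data, a replicate block, trended and robust moderation, array weights, an adjusted p under 0.01, and the thresholds in the methods (1.3-fold and an unadjusted p under 0.05).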

Additional observations from a re-analysis of the deposited data

How the results depend on the processing

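The precision is limited by 3 arrays a group from 1 population per construct, and among the single arrays, leaving out DAXX OE replicate 1 moved the 18q and 18p medians most. The 18q median was 0.16 to 0.38 and the 18p median 0.01 to 0.15 with one array left out in turn, and 0.15 to 0.40 and 0.02 to 0.19 under the other settings, where the 18q median exceeded that of other chromosomes by 0.22 to 0.26 under each normalization. Level-bin centring, which subtracts from each array the median of other chromosomes in each of 20 level bins and was chosen after seeing the data, gave 0.22 for 18q and 0.03 for 18p. The median over all members (-0.03) was -0.07 to 0.02 with one array left out, 0.05 with median centring and 0.067 with 1 cluster per gene. Over expressed members (0.09) it was 0.04 to 0.12, and 0.17 with median centring, 0.20 with 1 cluster per gene, 0.22 above the 75th percentile of level and -0.034 with no level filter. Members higher in DSM OE with no overlap numbered 174 to 219 with one array left out, which can only keep or add such clusters, and 109 to 179 otherwise. Those lower numbered 98 to 165 with one array left out and 17 with 1 cluster per gene.

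The count of called members (0) was 0 to 2 with one array left out, the 2 without DAXX OE replicate 1. It was 34 at the methods' thresholds (3.41%, against 1.04% of all clusters), 27 of them higher in DSM OE, against 465 of 703 over all clusters, and 210 with array weights, a fit whose weights (0.06 to 9.64) did not converge and which called 9340 of all clusters. That fit also brought the adjusted p of SMAD2 to 0.0086 (difference 0.33) and of SMAD4 to 0.0102 (0.29). In the main limma fit the adjusted p was 0.729 for each of SMAD2, SMAD4 and SMAD7. Without DAXX OE replicate 1 it was 0.185, 0.25 and 0.611 in that order. Same-numbered arrays did not deviate together (correlations -0.02, -0.18 and 0.07), so the numbers pair nothing. The fit with a replicate block called 0 members and 24 of all clusters, against 23 without it, and left the differences of SMAD2 (0.48), SMAD4 (0.43) and SMAD7 (0.14) as they were. Over all settings SMAD2 ran from 0.32 to 0.57, SMAD4 from 0.27 to 0.51 and SMAD7 from 0.10 to 0.22. Each result under each alternative setting was counted once, 138 in all, and these repeat the same arrays and settings. Of them, 123 kept a value within the spread between arrays, a count within 1.5 times or a call on its side of the threshold. The spread between arrays of the medians was wide (SD 0.18 for 18q and 0.12 for 18p), so a halved median counts among these.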
